A study of Drosophila melanogaster with 12 samples.

Results

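The genes described here encode the subunits of voltage-gated calcium channels in the fly: the pore-forming genes Ca-alpha1D, cac and Ca-alpha1T, the beta subunit gene Ca-beta and the alpha2delta subunit gene stj. They were taken as the probe sets that the platform annotation pairs with only 1 of these symbols. All 5 genes had at least 1 such probe set, among 11982 genes that had one. There were 8 probe sets in all, and for each gene the one with the highest mean over the 12 arrays represented it. These were 1640092_a_at for Ca-alpha1D, 1640614_at for cac, 1630042_at for Ca-alpha1T, 1640620_at for Ca-beta and 1627533_at for stj. All 8 passed the filter on low values used for the tests, which asked for a value at or above the median of the own array on at least 3 arrays.

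Each sample pooled 115 neurons that were sorted by green fluorescence from adult brains of Drosophila melanogaster, with 15 or more brains to a pool, and was read on its own Affymetrix Drosophila 2.0 array. There were 3 arrays of dopaminergic neurons from parkin null mutants, 3 of dopaminergic neurons from controls, 3 of cholinergic neurons from parkin null mutants and 3 of cholinergic neurons from controls. Parkin is a ubiquitin ligase of mitochondrial quality control, and the study set a neuron type sensitive to its loss against an insensitive one. The parkin allele, the driver of the fluorescent protein, the genotype of the controls and the age and sex of the flies are not given in the sources used here, nor whether pools within a group shared flies. The p-values therefore reflect the array-to-array spread, part of which may be technical.

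In a voltage-gated calcium channel the alpha1 subunit forms the pore and senses voltage, a cytoplasmic beta subunit promotes surface expression of the high-voltage types, and an extracellular alpha2delta subunit supports trafficking to the membrane and the synapse. Ca-alpha1D is the fly L-type pore gene, which carries calcium current in muscle and in neuronal cell bodies and dendrites. The cac gene encodes the channel that triggers transmitter release at presynaptic active zones, Ca-alpha1T encodes the low-voltage T-type pore, and stj is needed in flies for cac channels to accumulate at synapses. In mammals, L-type channels take part in the pacemaking of midbrain dopaminergic neurons.

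The arrays differed in quality, which touches every comparison that uses the dopaminergic mutants, and the cholinergic mutant effect as well. Dopaminergic mutant replicate 3, with the title code F6, had the fewest bright probe sets (log2 value of 8 or more), 1627, where the other arrays had 2182 to 3307. It also had the highest median, 6.30 against 5.59 to 6.004. For the neuronal gene elav it measured 6.27, against 9.07 to 11.90 elsewhere, and for brp 5.31, against 10.27 to 11.64. The neuronal gene nSyb was not low to that extent on the F6 array, with 10.65 against 10.70 to 11.61 elsewhere. Dopaminergic mutant replicate 1 had the next lowest number of bright probe sets, 2182. In cholinergic pools every mutant array had more bright probe sets (3009 to 3307) than every control array (2380 to 2911). On the F6 array the 5 dopaminergic markers averaged 5.67, below the 5.92 to 7.65 of the cholinergic pools, against 9.54 and 11.22 in the other dopaminergic mutants and 10.75 to 11.47 in dopaminergic controls. The dopamine synthesis gene ple measured 7.01, 10.94 and 4.36 in dopaminergic mutants and 10.39 to 10.57 in dopaminergic controls, against 3.61 to 4.18 in cholinergic pools, so the F6 array did not show the marker its label calls for. The cholinergic genes ChAT and VAChT did not mark the cholinergic pools alone, since they measured 9.28 to 11.39 and 6.01 to 9.74 in dopaminergic controls. The main log2 differences of the subunits that use the dopaminergic mutants are therefore also given without the F6 array. Those of related genes are given so in part.

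Ca-alpha1D was the subunit whose mutants lay wholly on one side of controls in dopaminergic neurons and wholly on the other side in cholinergic neurons, without passing the adjusted test in either. It measured 5.60, 7.84 and 6.82 in dopaminergic mutants, against 8.02, 11.49 and 11.63 in dopaminergic controls. Every dopaminergic mutant lay below every dopaminergic control, by a narrow gap at dopaminergic mutant replicate 2 and dopaminergic control replicate 1. The mutants at 5.60 and 6.82, replicate 1 and the F6 array, had the fewest bright probe sets of all arrays, 2182 and 1627. Mutant replicate 2 had 3119, and the dopaminergic controls had 2613 to 2866. In cholinergic neurons it measured 11.34, 11.56 and 9.34 in mutants, against 7.19, 7.17 and 9.01 in controls. Here every mutant lay above every control, again narrowly at replicate 3 of each group. The cholinergic mutants also had more bright probe sets than the cholinergic controls, without overlap. Over the 12 arrays Ca-alpha1D had r = 0.54 with that number (0.49 without the F6 array). The part of array quality in the differences of Ca-alpha1D was not tested. Over the 4 groups the order of the means was 10.74 ± 1.22 in cholinergic mutants, 10.38 ± 2.04 in dopaminergic controls, 7.79 ± 1.06 in cholinergic controls and 6.75 ± 1.124 in dopaminergic mutants (SD, n = 3 each). The first pair and the last pair of groups in that order were closer to each other than the SD of their arrays.

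The log2 difference of Ca-alpha1D between mutants and controls was −3.63 ± 1.14 (SE) in dopaminergic neurons and 2.95 ± 1.14 in cholinergic neurons. Neither passed the adjusted threshold of 0.05 over the 12460 probe sets tested with limma (adjusted p = 0.835 and 0.939, and unadjusted p = 0.00863 and 0.0250). The difference of these effects, dopaminergic minus cholinergic, was −6.59 ± 1.61, with a 95% interval from −10.13 to −3.04. Its unadjusted p of 0.00179 ranked 30 among the 12460, its adjusted p in limma was 0.692, and 5.18% of probe sets were under an unadjusted 0.05 in that comparison. In bulk pools such as these, less transcript in each neuron and fewer neurons with the transcript cannot be told apart.

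Mutants lay wholly below controls in 2.9% of the probe sets tested in dopaminergic neurons and wholly above controls in 3.67% in cholinergic neurons. Of the 5 subunits, Ca-alpha1D alone was in each of these classes. Both held at once in 0.161% of the probe sets, or 20 of 12460. Without the F6 array the difference was −3.66 ± 1.32 in dopaminergic neurons (adjusted p = 1.00 in limma) and the difference of the effects was −6.62 ± 1.76 (adjusted p = 0.964). Leaving out each array in turn gave −4.81 to −3.01 for the dopaminergic effect, 2.55 to 3.66 for the cholinergic effect and −7.76 to −5.96 for the difference of the effects, with no change of sign. Dopaminergic mutant replicate 1 and the F6 array were not left out together. With array weights the dopaminergic effect passed (−4.48; adjusted p = 0.0288), and there the mutant side rested mostly on dopaminergic mutant replicate 1, with a weight of 4.56 against 0.28 and 0.41 for replicates 2 and 3.

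The title codes of the samples begin with C, D, E or F, and only the E codes occur in all 4 groups. Among those arrays Ca-alpha1D measured 7.84 in the dopaminergic mutant, against 11.63 in the dopaminergic control, and 11.56 and 9.34 in the cholinergic mutants, against 9.01 in the cholinergic control. Blocking on the code letter gave −4.02 ± 1.37 for the dopaminergic effect and 2.84 ± 1.39 for the cholinergic one. What the codes stand for is not given in the sources used here. Ca-alpha1D is also a muscle channel, and the muscle markers that had a probe set, 5 of 7, averaged 5.45 to 6.47 in dopaminergic mutants, against 5.15 to 5.18 in dopaminergic controls. They averaged 4.91 to 5.95 in cholinergic mutants and 5.00 to 6.90 in cholinergic controls. The highest average, on cholinergic control replicate 1, went with 9.57 for bt, and the part of muscle RNA in the differences of Ca-alpha1D was not tested.

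**Figure D1:**
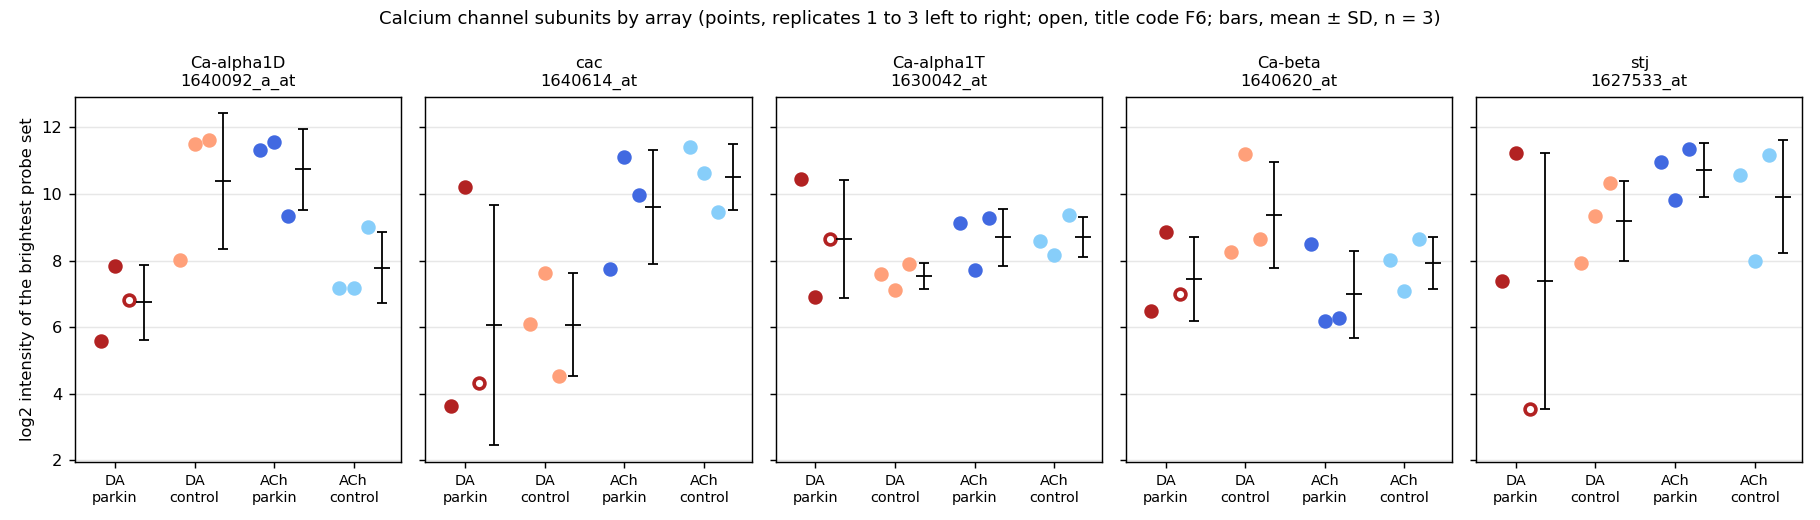
Log2 intensity of the brightest probe set of each subunit (y axis) on each array, in dopaminergic (DA) and cholinergic (ACh) pools from parkin mutants and controls. Points are arrays, the open circle is the F6 array, and black bars give the mean ± SD (n = 3). Ca-alpha1D lies between 5.60 and 7.84 in dopaminergic mutants and between 8.02 and 11.63 in dopaminergic controls, and the order is the opposite in cholinergic neurons.

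The remaining pore genes showed no such split. The presynaptic channel gene cac measured 3.64, 10.21 and 4.34 in dopaminergic mutants, against 6.09, 7.62 and 4.53 in dopaminergic controls. The mutants ran from below the lowest control to above the highest, so the mean difference of −0.02 ± 1.61 (95% interval −3.55 to 3.52; adjusted p = 0.999 in limma) covers changes of either sign. It was −2.09 without dopaminergic mutant replicate 2 and 0.85 without the F6 array. It measured 7.74, 11.10 and 9.97 in cholinergic mutants, against 11.43, 10.64 and 9.47 in cholinergic controls. The cholinergic groups overlapped, with a difference of −0.91 ± 1.61. Ca-alpha1T, the T-type pore, measured 10.44, 6.90 and 8.65 in dopaminergic mutants, against 7.59, 7.12 and 7.89 in dopaminergic controls. Its highest and its lowest value over all 12 arrays were both in dopaminergic mutants. The difference was 1.13 ± 0.91, and 1.14 ± 1.05 without the F6 array. In cholinergic mutants Ca-alpha1T measured 9.12, 7.71 and 9.28, against 8.60, 8.17 and 9.37 in cholinergic controls. The means of 8.70 and 8.71 left a difference of −0.01 ± 0.91, with a 95% interval from −2.01 to 1.99.

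The auxiliary subunits did not pass either. Ca-beta measured 6.48, 8.87 and 7.01 in dopaminergic mutants, against 8.26, 11.21 and 8.65 in dopaminergic controls. Mutant replicate 2 lay within the range of the controls, and the difference was −1.92 ± 1.01 (adjusted p = 0.935 in limma, unadjusted p = 0.0844). Without the F6 array it was −1.70 ± 1.18. In cholinergic mutants Ca-beta measured 8.49, 6.19 and 6.28, against 8.03, 7.10 and 8.64 in controls (−0.94 ± 1.01). The alpha2delta gene stj measured 7.39, 11.23 and 3.54 in dopaminergic mutants, against 7.94, 9.35 and 10.32 in dopaminergic controls. The lowest value of stj, on the F6 array, set its difference of −1.82 ± 1.65, which was 0.11 ± 1.33 without that array and −3.74 without dopaminergic mutant replicate 2. In cholinergic mutants stj measured 10.97, 9.82 and 11.36, against 10.59, 7.99 and 11.18 in controls (0.80 ± 1.65).

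By count, 4 of the 5 subunits measured lower in dopaminergic mutants, at a median log2 difference of −1.82. Over the 7601 genes with a tested probe set, which were not matched to the subunits in level, the median was 0.17. Without the F6 array 2 of the 5 subunits measured lower, at a median of 0.11, against −0.02 over all genes. In cholinergic mutants 3 of 5 measured lower, at a median of −0.01, against −0.11 over all genes. No subunit passed the adjusted threshold in either neuron type with limma, where it was passed by 0% of all probe sets in dopaminergic and 0.0482% in cholinergic neurons. At an unadjusted p under 0.05 there was 1 subunit, Ca-alpha1D, in each, against a background of 4.49% and 4.57% of probe sets. Averaged over the neuron types the mutation gave no subunit at that unadjusted level (background 3.73%), with Ca-beta at −1.43 ± 0.72 and Ca-alpha1D at −0.34 ± 0.81, and at −1.32 ± 0.79 and −0.35 ± 0.88 without the F6 array.

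**Figure D2:**
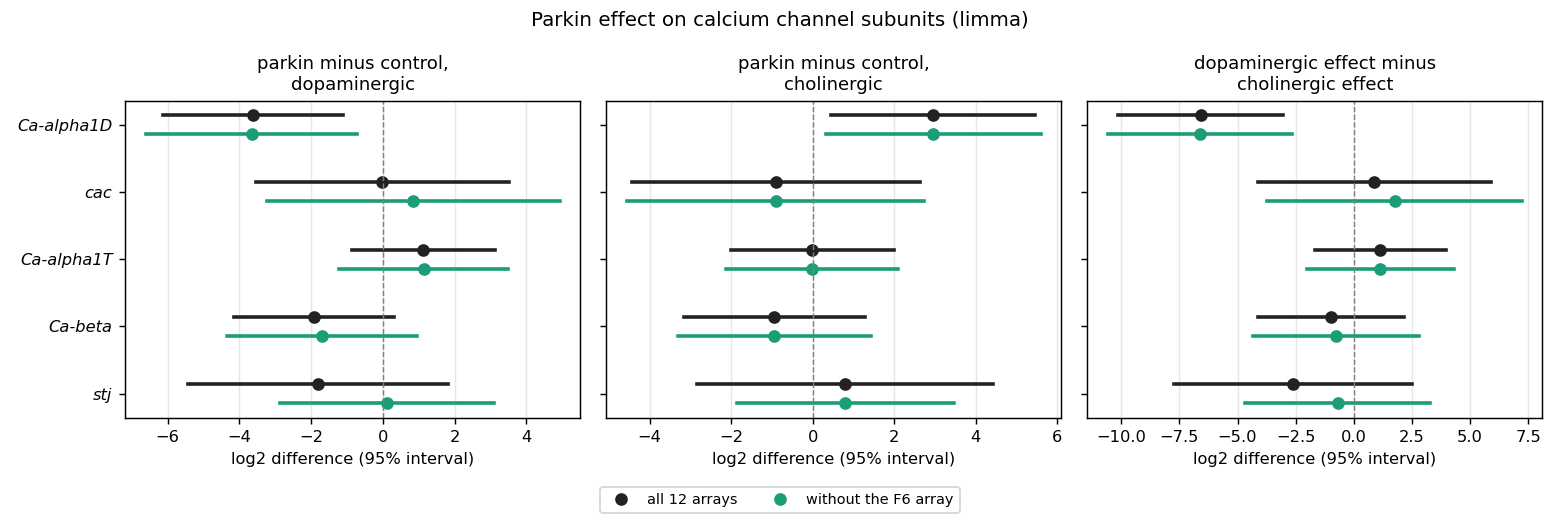
Log2 difference with its 95% interval in limma (x axis) for each subunit, for mutants minus controls in dopaminergic neurons, in cholinergic neurons, and for the difference of these effects. Black is the fit on all 12 arrays and green the fit without the F6 array. The intervals of Ca-alpha1D exclude 0 before adjustment in all panels, and stj moves to 0.11 in dopaminergic neurons without the F6 array.

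Averaged over the genotypes, the largest difference between the neuron types among the 5 subunits was that of cac, the release channel, and it did not pass the adjusted test. In dopaminergic pools it had a mean of 6.07 ± 2.48, against 10.06 ± 1.34 in cholinergic pools (SD, n = 6 each over both genotypes). In controls the dopaminergic arrays, 4.53 to 7.62, lay wholly below the cholinergic ones, 9.47 to 11.43, a class that held 3.53% of all probe sets. In mutants, 2 dopaminergic arrays measured 3.64 and 4.34, below every cholinergic mutant, while dopaminergic mutant replicate 2 measured 10.21 and lay among them. The log2 difference, dopaminergic minus cholinergic, was −3.54 ± 1.61 in mutants, −4.43 ± 1.61 in controls and −3.99 ± 1.14 averaged over the genotypes. In mutants it was −2.68 ± 1.82 without the F6 array.

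No difference of cac passed in limma (adjusted p = 0.450 in mutants, 1.00 in controls and 0.638 averaged; unadjusted p = 0.0497, 0.0186 and 0.00486). The averaged difference ranked 93 among 12460 by its p. It was −3.55 ± 1.22 without the F6 array (adjusted p = 0.772). With the code letter as a block it was −3.50 ± 1.30. Without dopaminergic mutant replicate 2, the array with the high value, it was −5.02 and passed (adjusted p = 0.0458, where 27 probe sets passed in all). That array had 3119 bright probe sets and 10.94 for ple. The dopaminergic mutants left were replicate 1 and the F6 array, with 2182 and 1627 bright probe sets and 7.01 and 4.36 for ple. Other dopaminergic markers set these arrays apart. Replicate 1 measured 12.71 for Vmat, 9.77 for DAT and 11.375 for Ddc, near or within the range of dopaminergic controls, and 6.84 for Fer2, below it. The F6 array measured 5.19, 5.54, 6.32 and 6.92 for these genes. The cholinergic markers ChAT and VAChT together averaged 8.61, 9.41 and 5.58 in dopaminergic mutants and 8.70 to 10.52 in dopaminergic controls, against 10.10 to 10.79 in cholinergic mutants and 9.43 to 10.50 in cholinergic controls. They did not go together on every array: dopaminergic mutant replicate 1, with 3.64 for cac, measured 11.72 for ChAT and 5.49 for VAChT. The glial markers averaged 4.34 to 6.40 in dopaminergic mutants and 3.97 to 6.24 in dopaminergic controls, against 5.81 to 7.21 in cholinergic mutants and 4.72 to 6.68 in cholinergic controls, and the part of either list in the difference of cac was not tested.

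The other subunits differed less than cac between the neuron types when averaged over the genotypes. Ca-alpha1D measured lower in dopaminergic than in cholinergic mutants without overlap (−3.99 ± 1.14; adjusted p = 0.450 in limma), in a class that held 4.57% of probe sets. Without the F6 array this difference was −4.02 ± 1.32 (adjusted p = 0.686 in limma). In controls Ca-alpha1D measured higher in dopaminergic pools by 2.59 ± 1.14 (adjusted p = 1.00) with overlap between the groups. These differences use the same arrays as the mutant effects above and are not independent of them. Ca-alpha1T measured 7.12 to 7.89 in dopaminergic controls, all below the 8.17 to 9.37 of cholinergic controls, a class that held 3.53% of probe sets, with a difference of −1.18 ± 0.91 (adjusted p = 1.00 in limma). In mutants it differed by −0.04 ± 0.91, and by −0.03 ± 1.05 without the F6 array. For stj the dopaminergic arrays had a mean of 8.29 ± 2.73, against 10.32 ± 1.27 in cholinergic arrays (−2.02 ± 1.17), and −1.06 ± 0.89 without the F6 array. Ca-beta measured higher in dopaminergic pools, with 8.41 ± 1.66 against 7.45 ± 1.09 (0.96 ± 0.72, and 1.07 ± 0.79 without the F6 array). This sign held for the brightest Ca-beta probe set only, as the other probe sets gave −0.56 and −1.58.

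At an unadjusted p under 0.05 there were 2 subunits in mutants, Ca-alpha1D and cac, against a background of 10.5% of probe sets. The same 2 reached it in controls (background 3.63%), and cac alone in the averaged difference (background 6.61%). Without the F6 array Ca-alpha1D alone reached it in mutants (unadjusted p = 0.0127 in limma, and 0.173 for cac), where the background was 6.15%. In controls cac alone then reached it (0.0223, and 0.0534 for Ca-alpha1D, with a background of 3.65%). The averaged difference of cac still did (0.0163, with a background of 5.37%). At the adjusted threshold no subunit passed, with 0.0161% of probe sets past it in mutants and 0% in controls and in the averaged difference.

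**Figure D3:**
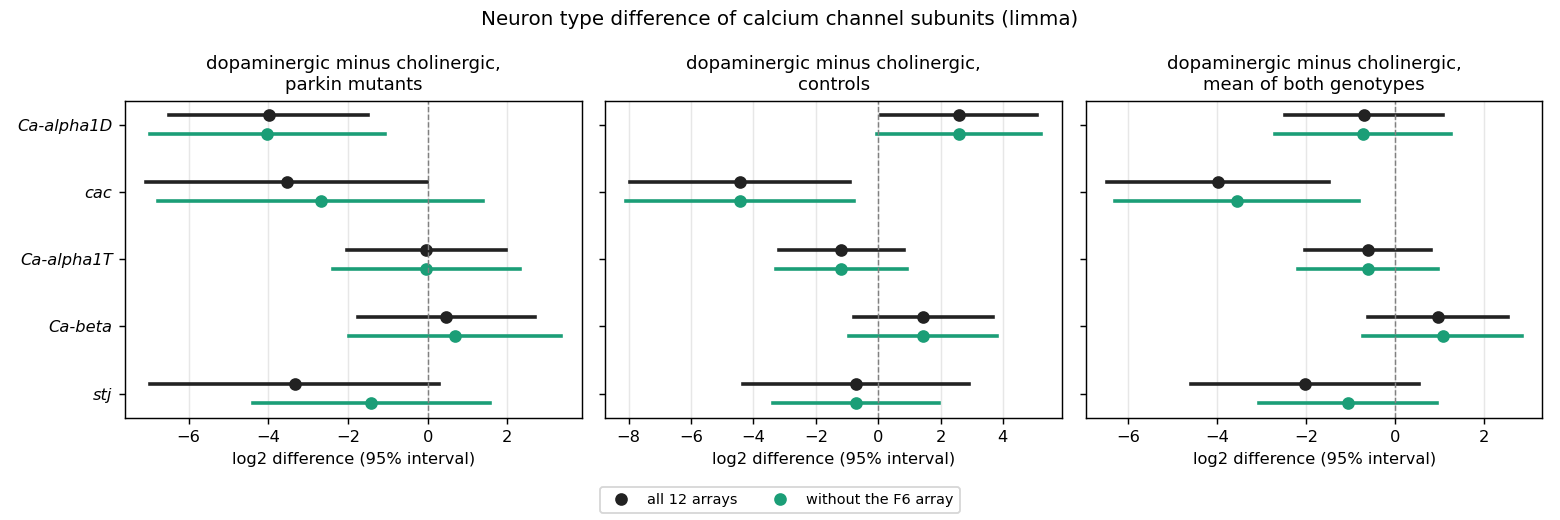
Log2 difference, dopaminergic minus cholinergic, with its 95% interval in limma (x axis) for each subunit in mutants, in controls and averaged over both. Black is the fit on all 12 arrays and green the fit without the F6 array. For cac the estimates lie between −4.43 and −2.68, and for Ca-alpha1D they are −3.99 in mutants and 2.59 in controls.

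The probe sets of 1 gene did not measure the same pattern, which bounds what can be said of cac and Ca-beta. The second cac probe set, 1640033_at, ran only from 5.48 to 7.89 over the arrays. Its highest value was on the F6 array, and over the 12 arrays it had r = 0.94 with the median of the array and r = −0.68 with the brighter cac probe set. The brighter probe set also followed the median of the array, in the other direction (r = −0.68, and −0.64 without the F6 array). In dopaminergic mutants 1640033_at measured 6.79, 6.03 and 7.89, against 6.54, 6.68 and 6.80 in dopaminergic controls. In cholinergic mutants it measured 6.11, 6.35 and 5.48, against 6.31, 6.42 and 5.96 in controls. In controls its dopaminergic values lay wholly above its cholinergic ones, as for 4.96% of probe sets. Its averaged difference between dopaminergic and cholinergic neurons was 0.68 ± 0.34 (0.44 ± 0.27 without the F6 array), opposite in sign to the brighter probe set. The lower level in dopaminergic pools was thus measured with 1 of the 2 cac probe sets.

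For Ca-beta, probe set 1638440_at measured 6.18, 9.73 and 7.11 in dopaminergic mutants, against 6.97, 6.33 and 7.64 in dopaminergic controls. Probe set 1628331_at measured 5.36, 9.45 and 5.32 in dopaminergic mutants, against 5.56, 6.13 and 5.30 in dopaminergic controls. With these probe sets the mutant effect in dopaminergic neurons was 0.69 ± 0.94 and 1.04 ± 1.39 (0.98 and 1.74 without the F6 array), where the brightest gave −1.92. Dopaminergic mutant replicate 2 was the highest of its group with all 3 Ca-beta probe sets and with the brighter cac probe set. Probe set 1628331_at was at or above the median of its array on 6 of 12 arrays only. In cholinergic mutants 1638440_at measured 6.51, 7.55 and 7.11, against 7.44, 8.88 and 9.87 in controls, and 1628331_at measured 8.95, 5.33 and 7.20, against 9.58, 5.59 and 9.94. The correlation between the Ca-beta probe sets over the 12 arrays was 0.05, 0.29 and 0.48. Where in the transcripts the probe sets lie is not given in the sources used here.

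**Figure D4:**
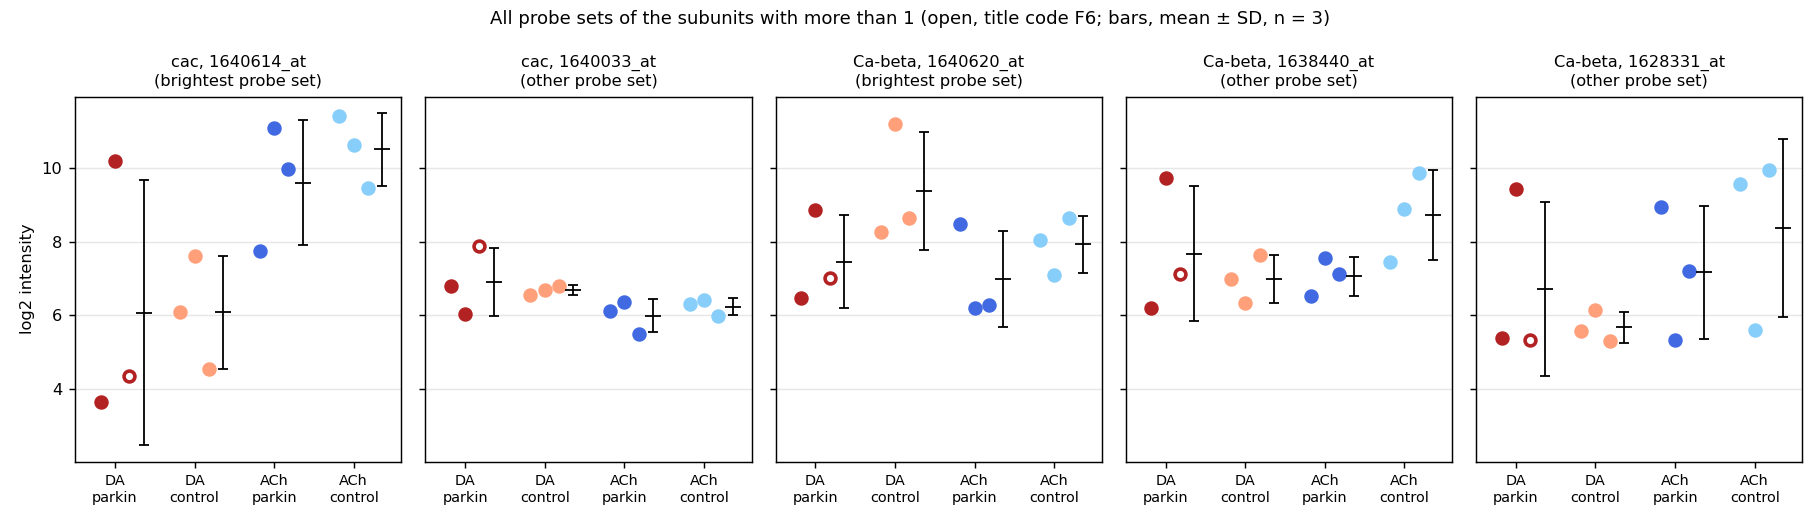
Log2 intensity (y axis) on each array for the 2 probe sets of cac and the 3 of Ca-beta, by group as in the plot of members by array, with the mean ± SD (n = 3). The brighter cac probe set spans 3.64 to 11.43 and the other 5.48 to 7.89, and the Ca-beta probe sets order the groups differently.

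How the subunits varied together was described over the 12 arrays, which differ in quality as well as in group. The alpha2delta gene stj followed the quality of the arrays closely. Its r was 0.93 with the number of bright probe sets and −0.94 with the median of the array, and 0.84 and −0.85 without the F6 array. For cac the first of these was 0.68, for Ca-alpha1D 0.54, for Ca-beta 0.20 and for Ca-alpha1T −0.24. Among the subunits, cac and stj had r = 0.59 (0.46 without the F6 array) and Ca-alpha1D and stj 0.50 (0.44), while Ca-alpha1T had negative values with the other 4 genes, from −0.51 with Ca-beta to −0.10 with stj. Ca-alpha1D and cac had r = 0.14 (0.01).

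The genes with the pattern most like each subunit were sought among 7600 genes by Pearson r over the 12 arrays, with 1 probe set a gene. For Ca-alpha1D they were Mtp, jdp and Hcf, all at r = 0.88, and jdp, Ran and Mtp over the 11 arrays without F6. For cac they were Ip259 (0.95), CG9426 (0.91) and br (0.91), and rdgB replaced br without the F6 array. For Ca-alpha1T they were CG14609, NUCB1 and Cdc37 (0.92, 0.92 and 0.90), with and without the F6 array. For Ca-beta they were Fsn, faf and tra (0.83, 0.81 and 0.81), of which tra alone stayed among the first 3 without the F6 array. For stj they were CG4577 (0.94), mura (0.92) and qvr (0.92), and none of these stayed without the F6 array, where hrg, heph and unc-5 came first (0.96, 0.91 and 0.91). Each is among the 3 highest of 7600 values and is given as a description.

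Related genes of calcium signalling were followed as lists, by counts within each list and by medians beside the median of all 7601 genes. Those genes were not matched to the lists in level. The share of all genes that measured lower was not counted. The alpha2delta family genes beside stj were stol and Ca-Ma2d. In dopaminergic neurons their mutant effects were −0.60 ± 0.69 for stol and −1.08 ± 1.11 for Ca-Ma2d, and neither passed in limma in any comparison (smallest adjusted p = 0.628). Of 26 genes for calcium stores, pumps, exchangers, mitochondrial uptake and calcium sensors, 21 were tested. In dopaminergic mutants 12 of these measured lower and 9 higher, none passing, with a median of −0.59, and 0.14 without the F6 array. The medians over all genes were 0.17 and −0.02. Neurocalcin, Nca, a neuronal calcium sensor, had the smallest p. It measured 5.01, 4.44 and 5.50 in dopaminergic mutants, against 9.71, 8.41 and 9.94 in dopaminergic controls, a difference of −4.37 ± 1.30 (adjusted p = 0.828 in limma), and −4.62 without the F6 array. The mutants lay wholly below the controls, a class that held 2.9% of all probe sets. In cholinergic mutants 15 of the 21 measured higher, at a median of 0.56 against −0.11 over all genes, with the ryanodine receptor gene RyR, a calcium release channel of the endoplasmic reticulum, at 3.22 ± 1.26 (adjusted p = 0.939).

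Between the neuron types, 20 of the 21 store and sensor genes measured lower in dopaminergic than in cholinergic mutants, at a median of −1.91, against 0.22 over all genes. Without the F6 array 15 of 21 measured lower, at a median of −0.61, against 0.16 over all genes. In controls 9 measured lower and 12 higher, at a median of 0.053, against 0.073 over all genes. Averaged over the genotypes 18 of 21 measured lower, at a median of −1.02 (−0.80 without the F6 array), against 0.15 over all genes (0.12). None passed in limma in the average, and 2 of 21 reached an unadjusted p under 0.05, where 6.61% of all probe sets did. Stim, the sensor of calcium in the endoplasmic reticulum, had the smallest p, with 6.59, 9.06 and 7.02 in dopaminergic mutants and 7.65, 6.24 and 6.58 in dopaminergic controls, against 11.53, 6.54 and 11.62 in cholinergic mutants and 11.48, 12.03 and 10.97 in cholinergic controls. Its averaged difference was −3.51 ± 0.91 (adjusted p = 0.555), with 1 cholinergic mutant array as low as the dopaminergic ones. MCU, the mitochondrial calcium uniporter, differed by −2.60 ± 0.94 (adjusted p = 0.672).

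Of 12 genes for release and the active zone, 10 were tested, and 8 measured lower in dopaminergic mutants at a median of −1.58, against 0.17 over all genes. The smallest p was that of Snap25, a vesicle fusion protein of the presynaptic membrane, with 5.72, 11.58 and 3.85 in dopaminergic mutants, against 11.24, 11.64 and 11.01 in dopaminergic controls. Its difference was −4.24 ± 1.59 (adjusted p = 0.935 in limma) and −2.64 without the F6 array, with mutant replicate 2 among the controls. Without the F6 array 5 of the 10 release genes were lower, at a median of −0.29, against −0.02 over all genes. Among 11 genes for sodium, leak and pacemaker channels, 8 measured lower in dopaminergic mutants at a median of −0.995, and 7 at a median of −0.92 without the F6 array. The medians over all genes there were the same 0.17 and −0.02. The smallest p of this list was that of Teh2, an auxiliary subunit of the sodium channel (−2.47 ± 0.81; adjusted p = 0.905 in limma). Between the neuron types the smallest p was that of unc79, a partner of the sodium leak channel (−2.38 ± 0.71 averaged over the genotypes; adjusted p = 0.661). No gene of these lists passed in any of the 7 comparisons.

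**Figure D5:**
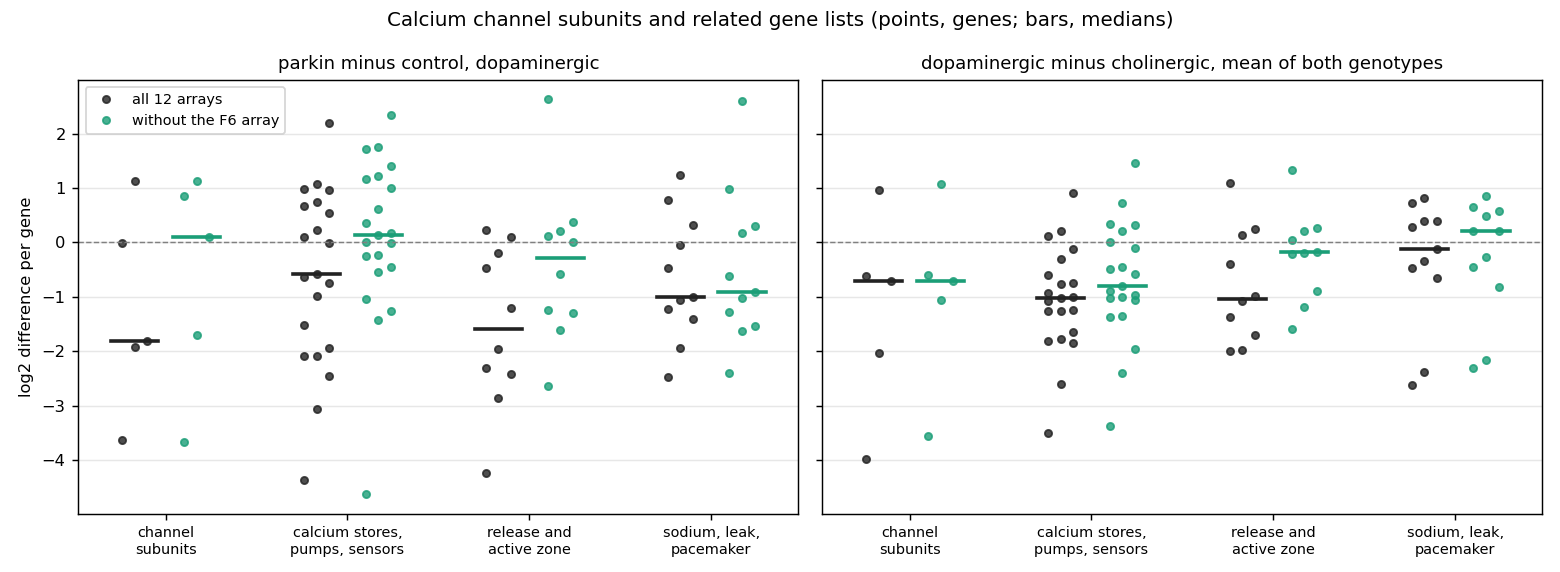
Log2 difference per gene (y axis) for the 5 channel subunits and 3 related lists, in dopaminergic mutants minus controls (left) and in dopaminergic minus cholinergic neurons averaged over the genotypes (right). Points are genes, bars are medians, black is all 12 arrays and green is without the F6 array. The median of the release and active zone list moves to −0.29 in the left panel without the F6 array, against −1.58 with it.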

How the data were processed

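Expression was measured on 12 Affymetrix Drosophila 2.0 arrays, after amplification of cDNA with the Ovation One-Direct kit and biotin labelling, per the labels' protocols. The values deposited by the authors were log2 intensities per probe set. The log2 scale was read from their range, and the method of normalization and summary is not given in the sources used here. Of 18952 probe sets, 183 controls were left out, and 12460 of the rest were at or above the median of their array on at least 3 arrays and were tested. Detection calls were not used here, and precision is limited by having 3 arrays a group.

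Values were used as deposited. Linear models from limma 3.58.1, run under R 4.3.3 with trended empirical Bayes variances, were fitted to all 12 arrays with 1 coefficient per group, 2-sided, with p-values adjusted by Benjamini and Hochberg over all tested probe sets. The procedure was also run on data simulated from the group means and residuals of these arrays. No error rate from that run is given here, and no result rests on it. Figures used Python 3.11.15 and matplotlib 3.10.9. The comparisons were the mutant effect in each neuron type, their difference and their mean, and the neuron type difference in each genotype and its mean. The named genes were the 5 subunits, the 3 genes with the highest r to each, and the genes with the smallest p in each list (at most 4 a list and comparison). Marker lists covered neurons, dopaminergic and cholinergic neurons, glia, muscle, photoreceptors, fat body and hemocytes. Photoreceptor, fat body and hemocyte markers averaged from 5.25 to 6.57, from 4.96 to 6.66 and from 4.75 to 6.57 over the arrays. The neuron list averaged 10.08 to 11.55 on 11 arrays and 7.41 on the F6 array, where nSyb measured 10.65. The members and lists were chosen with earlier results of these data known. Gene names came from the platform annotation, updated by gene number where the Release 6 gene table held it (13544 of 13647 probe sets with 1 symbol). Replicates were numbered in accession order. Alternatives were other scalings, filters, priors, weights, arrays, blocks and probe sets.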

Additional observations from a re-analysis of the deposited data

Results flagged for a closer look

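Ca-alpha1D was singled out because every dopaminergic mutant array lay below every dopaminergic control array while every cholinergic mutant array lay above every cholinergic control array. The difference of these effects was −6.59 ± 1.61 (SE) on the log2 scale. It was tested directly with limma and did not pass (adjusted p = 0.692; from 0.129 to 0.998 over 21 alternatives, with the sign the same in each).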

How the results depend on the processing

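Values of the 5 subunits in 7 comparisons were recomputed under at most 22 alternative settings each, 755 values in all, of which 4 passed the adjusted threshold and 33 had the other sign. The signs of Ca-alpha1D in either neuron type's mutant effect, in their difference and in either genotype's neuron type difference, and that of cac in the neuron type differences, did not change under these. In comparisons that use the dopaminergic mutants, no setting left out replicate 1 and the F6 array together. With array weights, Ca-alpha1D passed in dopaminergic mutants (−4.48) and in the neuron type difference in mutants (−5.25), as did cac in that neuron type difference (−5.36). In these weighted fits the dopaminergic mutants rested mostly on replicate 1, with a weight of 4.56 against 0.28 and 0.41. Replicate 1 also had the lowest cac value of all arrays, 3.64. The averaged difference of cac passed without dopaminergic mutant replicate 2 (−5.02), which left replicate 1 and the F6 array in that group. With the sign turned, the mutant effect of cac in dopaminergic neurons was 0.44 with the code block, 0.11 with the mean of probe sets and 0.23 with the other probe set, and ran from −2.09 to 1.19 with single arrays left out. That of stj was 0.0094 with the block (−3.74 to 0.11). In cholinergic neurons Ca-alpha1T was 0.096 with centred arrays and 0.14 with the block (−0.30 to 0.48), stj −0.040 with the block (−0.16 to 1.43), and cac −1.65 to 0.022. For the difference of effects, cac was −0.82 with array weights (−1.18 to 2.10), stj 0.049 with the block and Ca-beta 1.21 with the mean of probe sets. In neuron type differences, Ca-beta was −0.999 (controls) and −0.39 (averaged) with the mean of probe sets and −0.58 (mutants; −0.24 to 1.22) with array weights. Ca-alpha1T in mutants was 0.82 with quantile normalization and 1.50 with array weights (−0.93 to 0.84), and 0.16 averaged with array weights. The averaged mutant effects ran from −0.93 to 0.013 for Ca-alpha1D, −1.50 to 0.14 for cac and −1.47 to 0.45 for stj. The other probe sets, an alternative chosen after seeing the data, gave for Ca-beta 0.69 and 1.04 in dopaminergic mutants, 2.37 and 2.25 for the difference of effects, −1.74 and −2.70 in controls, −0.45 in mutants and −0.56 and −1.58 averaged. For cac they gave 0.44 in controls, 0.93 in mutants and 0.68 averaged. The cause was not tested, beyond the choice of arrays or probe sets itself.

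The number of probe sets past the threshold also moved. It was 0 in dopaminergic mutants, 1 without a filter and 524 with array weights (0 to 74 with single arrays left out, the 74 without dopaminergic mutant replicate 2). It was 6 in cholinergic mutants, 0 with the 65th percentile filter or the block, 2 without a trend and 3 with 6 arrays (0 to 14). It was 0 for the difference of effects (0 to 3). It was 0 for neuron type in controls, 1 without a filter or with 6 arrays and 6 with array weights (0 to 5). In mutants it was 2, against 0 with quantile normalization, the 65th percentile filter, robust hyperparameters, 6 arrays or the block, 1 without a trend, 6 with centred arrays and 620 with array weights (0 to 112, the 112 without dopaminergic mutant replicate 2). It was 0 for the averaged mutant effect, 2 with centred arrays, no filter, no trend or the mean of probe sets and 3 with array weights (0 to 11), and 0 for the averaged neuron type difference, 23 with array weights (0 to 27). No paired analysis was possible because the labels give no replicate numbers, and the block named here was the first letter of the title codes, which does not pair single arrays. Signal over background could not be judged without detection calls.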
